A study of Bos taurus with 14 samples.

Results

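DNMT1, UHRF1, DNMT3A, DNMT3B, TET1, TET2 and TET3 write, copy and remove cytosine methylation. The 7 genes were found by these symbols in the first column of the expression files, and each symbol occurred in all 14 libraries. They are 7 of 23159 features used in the files of the controls and of passage 10 (P10), 7 of 24616 in the files of later passages, and 7 of 18440 names used that occur in both. The rule uses gene symbols alone, and the list was drawn up with earlier results of these data known.

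Mammalian DNA is methylated mainly at cytosines that precede guanines. DNMT1 copies the mark onto the new strand after replication, with UHRF1 bringing it to half-methylated sites, while DNMT3A and DNMT3B set the mark at unmethylated sites. The TET enzymes oxidise methylcytosine, and base excision repair or further replication can then restore the unmodified base. Most of the mark is lost and later set again in the early embryo, so these genes are commonly used to place embryonic cells along that course.

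The study derived CTFR-bESC, bovine embryonic stem cells, from blastocysts and kept them in a custom basal medium with IWR1 at 2.5 µM, a small molecule that inhibits WNT signalling, and human FGF2 at 20 ng/mL. The cells grew over mouse embryonic fibroblast feeders (MEFs). Line A was sampled at P10, P13, P23, P35 and P45 and line B at P10, P12, P24, P35 and P46, with 1 library each, so the libraries of a line are serial passages of 1 culture. The controls were 2 pools of 10 whole blastocysts labelled in vivo and 2 lines of skin fibroblasts, here called line 1 and line 2. The labels used here name no genotype, breed or animal age. The P10, blastocyst and fibroblast groups each hold 2 lines or pools, while the 4 later libraries of line A, and likewise of line B, are repeated samples of that line. A p-value between the lines therefore reflects the spread among passages of 2 cultures and nothing wider. Values are RPKM, read counts scaled by gene length and by the mapped reads of the library, so levels of different genes can be set side by side within a library.

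The libraries carried the markers of their labels, with the following limits. SOX2, a pluripotency factor, lay between 148 and 205 RPKM in the 10 stem cell libraries. It was 2.12 and 3.18 RPKM in blastocysts and 0.257 and 1.81 RPKM in fibroblasts. Of 7 pluripotency markers tested at P10 (limma, below), 7 were higher than in fibroblasts and 6 than in blastocysts. Of all genes 35.4% and 73.0% were, so the count against blastocysts alone says little. The median change of these markers was 6.09 and 1.89 relative to the median of all genes. NANOG overlapped with blastocysts, at 4.49 and 2.15 RPKM at P10 against 0.549 and 4.57 RPKM. TDGF1, which was not tested, was 0.104 and 0.147 RPKM at P10 and 0.159 and 0.466 RPKM in blastocysts. POU5F1, NANOG and TDGF1 had no values in the later libraries. CDX2, a trophectoderm factor, was listed at 0 in all stem cell libraries and at 13.8 and 15.9 RPKM in blastocysts, which hold trophectoderm beside the inner cells. The keratins of the same marker list were present in stem cells: KRT8 lay between 115 and 514 RPKM there and at 473 and 306 RPKM in blastocysts, and KRT18 between 37.9 and 274 RPKM and at 414 and 297 RPKM. The 8 trophectoderm markers summed to 157 to 788 RPKM in stem cells, 1029 and 740 RPKM in blastocysts and 15.6 and 11.8 RPKM in fibroblasts. KRT8 and KRT18 made up nearly all of the stem cell sum. In stem cells GATA2 was at most 0.326 RPKM, GATA3 0.600, TFAP2C 0.174 and SLC34A2 0.091 RPKM. Blastocysts had 8.84 and 3.26, 12.3 and 12.4, 34.9 and 31.0, and 72.25 and 74.8 RPKM of these. ELF5 was at most 0.071 RPKM in stem cells and 0.039 RPKM in blastocysts. All 10 fibroblast markers were above 0 in every stem cell library, with a summed level of 118 to 362 RPKM there, 4.03 and 4.84 RPKM in blastocysts and 6820 and 7499 RPKM in fibroblasts. How reads of mouse feeder RNA were treated is not given in the sources used here, and their part in the values below was not tested. In blastocysts the 2 most abundant features held 65.8% and 64.0% of the summed RPKM, against 2.1% to 3.4% in all other libraries. An exact 0 is written as listed at 0, since GAPDH, which cells in general use, has this value in 14 of 14 libraries.

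**Figure D1:**
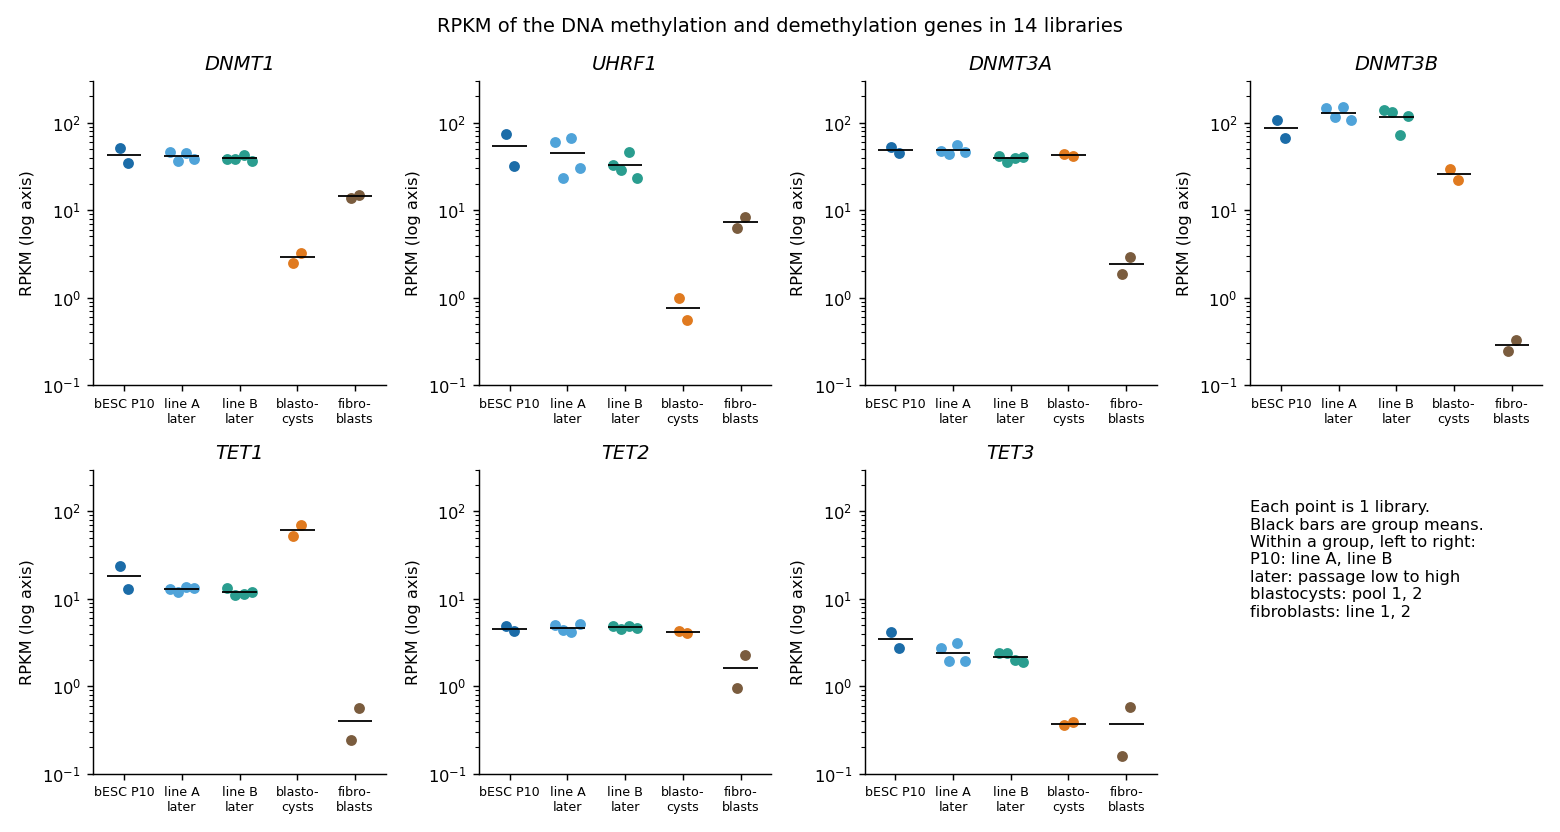
RPKM (log axis) of each of the 7 genes in 14 libraries, 1 point per library, with bars at group means (2 P10, 4 line A later, 4 line B later, 2 blastocyst and 2 fibroblast libraries). DNMT3B reached 149.6 RPKM in stem cells and stayed at or under 0.331 RPKM in fibroblasts, while TET1 was highest in the blastocyst pools, at 52.6 and 69.3 RPKM.

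Each of the 7 genes was higher in P10 stem cells than in fibroblasts, by 1.12 (TET2) to 6.07 (DNMT3B) on the log2(RPKM + 1) scale. A gene was called at a Benjamini-Hochberg adjusted p under 0.05 in limma, fitted over all genes. Of the 11761 genes tested 35.4% were called higher in this comparison and 57.3% in either direction. Against blastocysts 4 of the 7 genes were called higher (DNMT1, UHRF1, DNMT3B and TET3) and 1 lower (TET1). Here 73.0% of all genes were called higher and 7.33% lower, 80.3% in all. This split depends on scaling: 8583 genes higher and 862 lower as deposited became 3880 and 3337 after quantile normalization, 4240 and 3398 after median-of-ratios scaling, and 5335 and 2361 after scaling without the 2 most abundant features of each library. Blastocysts compared with fibroblasts gave 4 genes higher (DNMT3A, DNMT3B, TET1 and TET2) and 2 lower (DNMT1 and UHRF1), beside 11.0% and 63.4% of all genes, 74.4% in all. The 1289 genes higher and 7457 lower as deposited became 3695 and 3895, 3654 and 4171, and 3500 and 4213 under the same 3 scalings.

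The median of all genes was itself shifted, by 0.23 between P10 cells and fibroblasts, by 1.43 between P10 cells and blastocysts and by -1.15 between blastocysts and fibroblasts. Each change is therefore given as fitted and again relative to the median gene, and the p-values test the fitted change. Under all 4 scalings 6 of the 7 genes stayed higher at P10 than in fibroblasts, all but TET2, beside 25.3% of all genes. Against blastocysts DNMT1 and UHRF1 stayed higher and TET1 lower under all 4, beside 30.2% and 7.3% of all genes. For blastocysts against fibroblasts DNMT3A, DNMT3B, TET1 and TET2 stayed higher under all 4, beside 11.0% of all genes. In whole cultures and embryos, fewer cells of a type and less RNA per cell cannot be told apart.

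**Figure D2:**
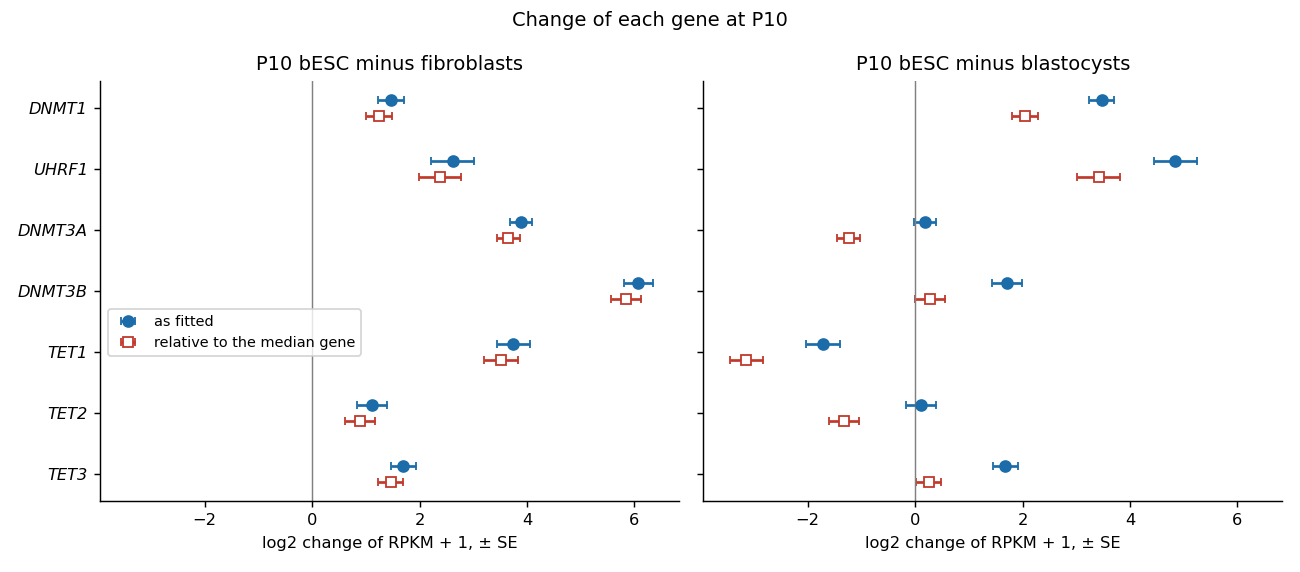
Change of each gene at P10 against fibroblasts and against blastocysts, on the log2(RPKM + 1) scale with the SE of the limma fit (2 libraries per group). Filled circles are the fitted change and open squares the change relative to the median gene, and against blastocysts DNMT3A and TET2 lie near 0 as fitted but at -1.24 and -1.32 relative to the median gene.

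DNMT1, the maintenance methyltransferase, was 50.8 RPKM in line A and 34.3 RPKM in line B at P10. It lay at 45.7, 36.2, 45.6 and 38.6 RPKM in line A at P13, P23, P35 and P45, and at 38.4, 38.5, 43.1 and 36.2 RPKM in line B at P12, P24, P35 and P46. Blastocysts had 2.49 and 3.27 RPKM and fibroblasts 13.7 and 15.0 RPKM. Every stem cell library was thus above both fibroblast lines, which were above both blastocyst pools. At P10 the gene was higher than in fibroblasts by 1.48 ± 0.24 (log2, SE, n = 2 each; 1.24 relative to the median gene; limma adjusted p = 0.00232). It was higher than in blastocysts by 3.47 ± 0.24 (2.04 relative; limma adjusted p = 3.1e-05). In blastocysts it was lower than in fibroblasts by the fitted change of -1.99 ± 0.24 (-0.84 relative; limma adjusted p = 0.000317), a call that was lost at -0.54, -0.64 and -0.68 under the other 3 scalings.

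UHRF1, which binds half-methylated DNA and recruits DNMT1, reached 75.1 RPKM in line A and 32.4 RPKM in line B at P10. In later libraries it was 60.2, 23.3, 66.7 and 30.2 RPKM in line A by rising passage and 32.6, 28.8, 46.2 and 23.5 RPKM in line B. Blastocysts had 0.980 and 0.550 RPKM and fibroblasts 6.29 and 8.27 RPKM. The order of the sample types was that of DNMT1 and the groups did not overlap between types, but the stem cell libraries differed among themselves by far more. The change at P10 was 2.62 ± 0.40 against fibroblasts (2.39 relative; limma adjusted p = 0.00171) and 4.85 ± 0.40 against blastocysts (3.42 relative; limma adjusted p = 5.58e-05). Blastocysts were below fibroblasts by a fitted -2.23 ± 0.40 (-1.08 relative; limma adjusted p = 0.00198), which no longer passed after quantile normalization, at -0.83.

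DNMT3A, a de novo methyltransferase, was 52.9 RPKM in line A and 45.3 RPKM in line B at P10, and between 36.0 and 56.0 RPKM in the later libraries. Blastocysts had 43.5 and 42.0 RPKM, within the range of the stem cells, and fibroblasts only 1.88 and 2.95 RPKM. It was the methyltransferase whose deposited level differed least between stem cells and embryos. At P10 the gene was higher than in fibroblasts by 3.89 ± 0.21 (3.66 relative; limma adjusted p = 3.8e-05). Against blastocysts the fitted change was 0.19 ± 0.21, with a 95% interval of -0.31 to 0.69 and a limma adjusted p of 0.426, but it turned to -1.09, -1.63 and -1.14 under the other 3 scalings and was called lower under each. By rank, which no scaling moves, DNMT3A stood above 89.1% to 93.6% of 12855 named genes in stem cells, above 97.6% and 97.3% in blastocysts and above 43.0% and 47.3% in fibroblasts. Blastocysts exceeded fibroblasts by 3.70 ± 0.21 (4.85 relative; limma adjusted p = 1.86e-05).

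DNMT3B, the second de novo methyltransferase, had the highest level of the 7 genes in every stem cell library. It was 109 RPKM in line A and 67.6 RPKM in line B at P10. Later values were 149, 118, 149.6 and 107 RPKM in line A and 141, 134, 72.2 and 118 RPKM in line B, by rising passage. Blastocysts had 29.7 and 21.9 RPKM and fibroblasts 0.242 and 0.331 RPKM, so stem cells, blastocysts and fibroblasts did not overlap. In stem cells the gene ranked above 95.2% to 98.2% of 12855 named genes, in blastocysts above 96.2% and 93.8%, and in fibroblasts above 30.6% and 32.8%. The change at P10 against fibroblasts was 6.07 ± 0.27 (5.84 relative; limma adjusted p = 2.6e-05), the largest among the 7 genes in that comparison. Against blastocysts it was 1.71 ± 0.27 (0.28 relative; limma adjusted p = 0.0011), and the other 3 scalings gave 0.40, -0.10 and 0.39 with no call, so the direction was not stable to scaling. Blastocysts were above fibroblasts by 4.37 ± 0.27 (5.52 relative; limma adjusted p = 2.48e-05).

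TET1, the TET enzyme known from pluripotent cells of mouse and human, was called lower in P10 stem cells than in blastocysts under all 4 scalings. It was 23.9 RPKM in line A and 13.1 RPKM in line B at P10, and 11.1 to 13.5 RPKM later. Blastocysts had 52.6 and 69.3 RPKM and fibroblasts 0.245 and 0.564 RPKM, with no overlap between sample types. Its rank among named genes was above 67.4% to 83.4% in stem cells, above 98.1% and 98.7% in blastocysts and above 30.6% and 35.1% in fibroblasts. At P10 it was lower than in blastocysts by a fitted -1.71 ± 0.31 (-3.14 relative; limma adjusted p = 0.00207), and lower under the other scalings at -3.14, -3.50 and -3.03. It was higher than in fibroblasts by 3.75 ± 0.31 (3.52 relative; limma adjusted p = 0.000156). Blastocysts exceeded fibroblasts by 5.46 ± 0.31 (6.61 relative; limma adjusted p = 1.89e-05), the largest change of the 7 genes in that comparison.

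TET2, an oxidase that lacks the CXXC domain of the other two, had the narrowest range in proportion to its level. It was 4.86 RPKM in line A and 4.24 RPKM in line B at P10, 4.23 to 5.12 RPKM later, 4.25 and 4.05 RPKM in blastocysts, and 0.965 and 2.30 RPKM in fibroblasts. Both fibroblast lines lay below every other library, and the stem cells and blastocysts overlapped. The change at P10 against fibroblasts was 1.12 ± 0.28 (0.89 relative; limma adjusted p = 0.0139), and it was not called after quantile normalization (limma adjusted p = 0.0691) or without line A at P10 (limma adjusted p = 0.0668). Against blastocysts the fitted change was 0.10 ± 0.28, with a 95% interval of -0.57 to 0.78 and a limma adjusted p of 0.744. It became -1.53, -1.43 and -1.04 under the other 3 scalings, each called lower. TET2 ranked above 45.6% to 51.4% of named genes in stem cells, above 74.1% and 73.2% in blastocysts and above 37.8% and 44.7% in fibroblasts. Blastocysts were above fibroblasts by 1.02 ± 0.28 (2.17 relative; limma adjusted p = 0.0145), a call lost without either blastocyst pool or without fibroblast line 1.

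TET3, the TET enzyme known from oocyte and zygote in mouse, was low throughout. It was 4.19 RPKM in line A and 2.74 RPKM in line B at P10, and 1.90 to 3.09 RPKM later. Blastocysts had 0.364 and 0.386 RPKM and fibroblasts 0.160 and 0.587 RPKM, so these groups overlapped below all stem cell values. The change at P10 was 1.70 ± 0.23 against fibroblasts (1.47 relative; limma adjusted p = 0.00115). Against blastocysts it was 1.68 ± 0.23 (0.25 relative; limma adjusted p = 0.000564), with no call after quantile normalization, at 0.20. Between blastocysts and fibroblasts the fitted change was 0.02 ± 0.23, with a 95% interval of -0.54 to 0.58 (limma adjusted p = 0.957), and it was called higher in blastocysts after quantile normalization, at 0.88. Most of these levels lie near the pseudocount of 1, where the log scale understates changes.

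At P10 line A exceeded line B in 7 of 7 genes, most for UHRF1. The 2 cultures also differed in other genes at that passage: 17 DNA replication genes averaged 5.39 in line A and 4.68 in line B on the log2(RPKM + 1) scale, and the 10 fibroblast markers summed to 118 RPKM in line A and 237 RPKM in line B. The part of either in the gap between the lines was not tested. Among fibroblasts, line 2 exceeded line 1 in 7 of 7 genes. The share of all genes higher in line A at P10, or in fibroblast line 2, is not given here. Neither count therefore marks the 7 genes out from other genes.

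The proportions within each family are free of the scaling of a library, since they compare genes of the same library. DNMT3B made up 51.1% and 45.9% of the summed RPKM of the 3 methyltransferases at P10, and 46.8% to 64.3% later. In blastocysts it was 39.2% and 32.6%, with DNMT3A the larger part at 57.5% and 62.5%. In fibroblasts DNMT1 alone made up 86.6% and 82.1%, and DNMT3B 1.53% and 1.81%. Each sample type thus had its own leading methyltransferase. The ratio of DNMT3B to DNMT3A was 2.05 and 1.49 at P10, 1.85 to 3.72 later, 0.681 and 0.521 in blastocysts and 0.128 and 0.112 in fibroblasts.

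The sum of DNMT3A and DNMT3B over DNMT1 showed the distance between the controls. It was 3.17 and 3.29 at P10, 2.58 to 4.76 later, 29.5 and 19.5 in blastocysts and 0.155 and 0.218 in fibroblasts. UHRF1 stood at 1.48 and 0.945 times DNMT1 at P10 and at 0.644 to 1.46 times later, against 0.394 and 0.168 times in blastocysts and 0.458 and 0.550 times in fibroblasts. The stem cells thus lay between the controls in the first ratio and above both in the second.

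Among the TET genes, TET1 led in embryonic samples and TET2 in fibroblasts. TET1 made up 72.5% and 65.3% of the summed TET RPKM at P10, 61.9% to 65.6% later, 91.9% and 94.0% in blastocysts and 17.9% and 16.3% in fibroblasts, where TET2 made up 70.4% and 66.7%. The 3 methyltransferases together stood at 6.45 and 7.32 times the 3 TET genes at P10 and at 8.44 to 12.1 times later. This ratio was 1.32 and 0.911 in blastocysts and 11.6 and 5.31 in fibroblasts, so the blastocyst pools lay below all other libraries.

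**Figure D3:**
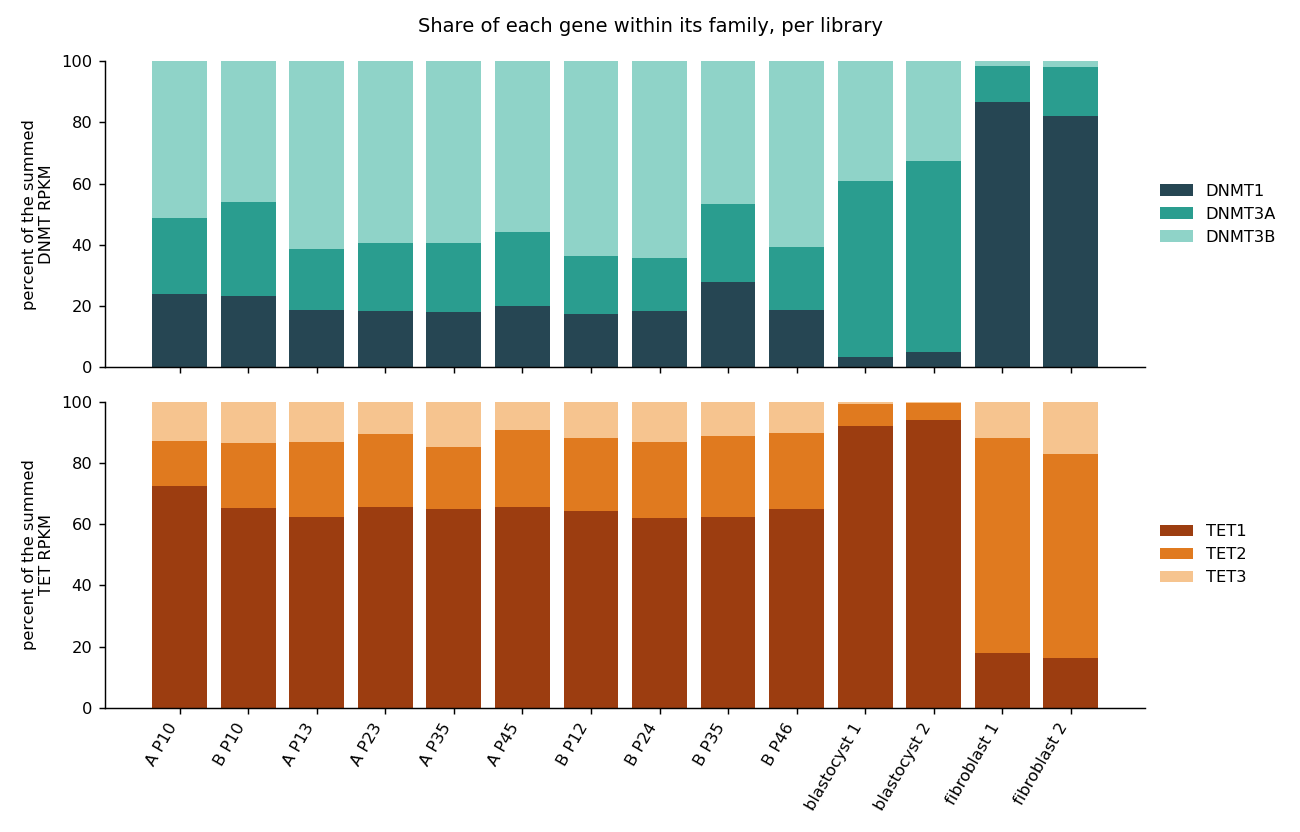
Share of each gene in the summed RPKM of the 3 methyltransferases (top) and of the 3 TET genes (bottom), 1 bar per library from P10 and later stem cells to blastocysts and fibroblasts. DNMT3B took 45.9% to 64.3% in stem cells, DNMT3A 57.5% and 62.5% in blastocysts and DNMT1 86.6% and 82.1% in fibroblasts.

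The files of P10 and of later passages hold different feature lists and different total RPKM (349527 and 365195 at P10, 475822 to 501373 later), and may have been normalized separately. Their levels are given side by side above with no test. The ranges of P10 and later libraries overlapped for each of the 7 genes. Line A at P10 lay above the later range for DNMT1 (50.8 against at most 45.7 RPKM), UHRF1 (75.1 against at most 66.7 RPKM), TET1 (23.9 against at most 13.5 RPKM) and TET3 (4.19 against at most 3.09 RPKM). Line B at P10 lay below it for DNMT1 (34.3 against at least 36.2 RPKM) and DNMT3B (67.6 against at least 72.2 RPKM).

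Between P12 and P46 none of the 7 genes was called different between lines or changing with passage. In the comparison of line A with line B, 2 of 12785 genes (0.0156%) were called by limma, and 755 had an unadjusted p under 0.05. DNMT3A was 43.8 to 56.0 RPKM in line A and 36.0 to 41.9 RPKM in line B, with no overlap. Its difference of 0.29 ± 0.09 had an unadjusted p of 0.0143 and a limma adjusted p of 0.734. For UHRF1 the difference was 0.36 ± 0.35 (limma adjusted p = 0.802), with a 95% interval of -0.43 to 1.15. Without line A at P13 and P35 it became -0.25, and the small difference of DNMT1, 0.08 ± 0.10, became -0.06. These libraries ranked 1 and 2 of the later libraries in both genes. Leaving them out therefore had to lower both differences, and the turn of sign is no independent check.

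No gene of all tested was called for a slope with passage (0.0% of 12785) or for a difference of slopes between lines (0.0%) by limma, while 494 and 83 had an unadjusted p under 0.05. The slope of DNMT3B was -0.12 ± 0.08 per 10 passages, with a 95% interval of -0.30 to 0.06 (limma adjusted p = 0.961). That of UHRF1 was -0.09 ± 0.14, with an interval of -0.41 to 0.23, and it became 0.01 without line A at P13. For DNMT1, DNMT3A, TET1 and TET2 the 95% intervals reached no lower than -0.11 and no higher than 0.09. TET3 gave -0.06 ± 0.06.

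The genes differed in how far the 8 later libraries spread. The coefficient of variation was 43.2% for UHRF1, which was above that of 94.4% of all genes, 21.1% for DNMT3B, 19.1% for TET3 and 14.1% for DNMT3A. It was 9.80% for DNMT1, 7.40% for TET1 and 6.90% for TET2, against 14.2% for the median gene. Line A at P13 and P35 held the top 2 places for DNMT1, UHRF1, DNMT3A, DNMT3B and TET3, and line A at P35 was highest of all in UHRF1, DNMT3A, DNMT3B, TET1 and TET3. TET2 was instead lowest in line A at P35, within a range of 4.23 to 5.12 RPKM.

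Other genes also differed among these libraries. Replication genes were mostly highest in line A at P13 and P35, as UHRF1 was. KRT8 was lower there, and the fibroblast markers overlapped with the rest. The share of all genes highest in line A at P13 or P35 is not given here. Of 18 measured DNA replication genes, 12 were highest in line A at P35 and 4 in line A at P13. KRT8, a keratin of simple epithelia, was 154 and 217 RPKM in line A at P13 and P35 and 333 to 514 RPKM in the other 6. The fibroblast markers summed to 310 and 362 RPKM in line A at P13 and P35 and to 229 to 327 RPKM in the rest. The part of these differences in the spread of UHRF1 was not tested.

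**Figure D4:**
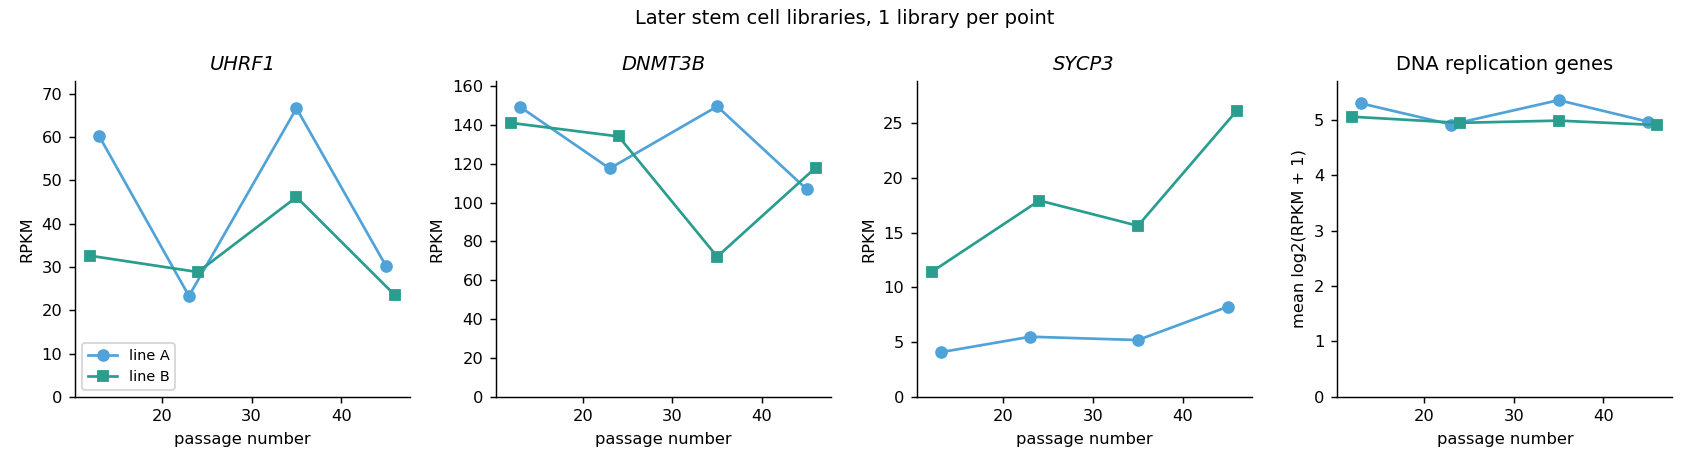
UHRF1, DNMT3B and SYCP3 (RPKM) and the mean log2(RPKM + 1) of 17 DNA replication genes against passage number in the later libraries of line A (circles) and line B (squares), 1 library per point. UHRF1 was 60.2 and 66.7 RPKM in line A at P13 and P35 and at most 46.2 RPKM elsewhere, DNMT3B was lowest in line B at P35, at 72.2 RPKM, and SYCP3 was lower in line A throughout.

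The genes that work with these enzymes were followed in lists chosen by role. Each count below stands beside 35.4% of all genes higher and 21.9% lower at P10 than in fibroblasts. Against blastocysts these shares were 73.0% and 7.33%. Under all 4 scalings 25.3% of all genes stayed higher than in fibroblasts and 30.2% than in blastocysts. Among 7 partners of maintenance methylation, 5 were higher and 1 lower at P10 than in fibroblasts, with a median change of 1.43 against 0.23 for all genes. Against blastocysts 6 were higher, where 73.0% of all genes were, with a median of 1.69 against 1.43 for all genes. Only CDCA7L stayed higher under all 4 scalings, as 30.2% of all genes did. HELLS, a chromatin remodeller needed for methylation, was 59.7 and 34.7 RPKM at P10 and 8.57 and 12.0 RPKM in fibroblasts (2.06 ± 0.29; limma adjusted p = 0.00132). USP7, which stabilises UHRF1 and DNMT1, was 95.6 and 83.0 RPKM at P10 and 32.6 and 32.3 RPKM in fibroblasts (1.43 ± 0.17; limma adjusted p = 0.000616).

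UHRF2, a relative of UHRF1, was lower at P10 than in fibroblasts. It was 14.3 and 19.1 RPKM at P10, 6.37 and 7.83 RPKM in blastocysts and 28.6 and 55.6 RPKM in fibroblasts. The fitted change was -1.22 ± 0.33 against fibroblasts (limma adjusted p = 0.0183), lower under all 4 scalings. Against blastocysts it was 1.12 ± 0.33 (-0.31 relative; limma adjusted p = 0.0174), called higher as UHRF1 was, but not under all 4 scalings. CDCA7L, a relative of the HELLS activator CDCA7, was 26.1 and 24.4 RPKM at P10, 0.464 and 0.32 RPKM in blastocysts and 17.2 and 20.5 RPKM in fibroblasts. Its change against blastocysts was 4.24 ± 0.19 (limma adjusted p = 1.15e-05), beside 3.47 ± 0.24 for DNMT1.

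Of 9 measured partners and recruiters of the de novo enzymes, 7 were higher at P10 than in fibroblasts and none lower, also under all 4 scalings, with a median of 1.79. Against blastocysts 7 were higher, where 73.0% of all genes were, and 4 of them under all 4 scalings, beside 30.2% of all genes. The median of 1.23 was below the 1.43 of all genes. TRIM28, a corepressor that brings silencing to transposons and imprinted loci, was 240 and 209 RPKM at P10, 15.3 and 13.7 RPKM in blastocysts and 59.9 and 57.5 RPKM in fibroblasts. EHMT1, a histone H3 lysine methyltransferase, was 34.8 and 33.7 RPKM at P10, 0.869 and 0.650 RPKM in blastocysts and 7.19 and 7.47 RPKM in fibroblasts. These genes had changes of 3.86 ± 0.17 and 4.33 ± 0.18 against blastocysts (limma adjusted p = 1.1e-05 and 1.08e-05). NSD1, another histone methyltransferase, resembled DNMT3A instead in its deposited levels. It had 27.1 and 23.7 RPKM at P10, 23.1 and 26.0 RPKM in blastocysts and 6.01 and 7.33 RPKM in fibroblasts. Its change against blastocysts was 0.05 ± 0.18 as fitted but -1.38 relative to the median gene. DNMT3L, a catalytically inactive relative that stimulates the de novo enzymes in mouse germ cells, was listed at 0 in P10 cells and blastocysts and at 0.041 RPKM and 0 in fibroblasts.

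Of 16 partners of demethylation and base excision repair, 8 were higher and 2 lower at P10 than in fibroblasts (median 0.66, against 0.23 for all genes). Against blastocysts 13 were higher and 1 lower, where 73.0% and 7.33% of all genes were, and the median of 1.46 was close to the 1.43 of all genes. Under all 4 scalings these counts were 7 and 2, and 6 and 1. TDG, the glycosylase that removes the oxidation products made by TET enzymes, was 32.4 and 25.2 RPKM at P10, 1.14 and 1.17 RPKM in blastocysts and 7.85 and 10.9 RPKM in fibroblasts. It is named here for its role beside the TET enzymes, chosen after its values were seen. XRCC1, a repair scaffold, was 30.8 and 26.3 RPKM at P10, 1.71 and 1.95 RPKM in blastocysts and 7.90 and 7.26 RPKM in fibroblasts, a change of 3.38 ± 0.19 against blastocysts (limma adjusted p = 1.69e-05). TET1 was lower than in blastocysts in the same P10 libraries in which TDG and XRCC1 were higher. The list as a whole did not rise beyond other genes, with a median of 0.03 relative to the median gene.

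PRDM14, a pluripotency regulator that restrains de novo methylation in mouse, was 35.4 and 16.2 RPKM at P10 and 14.4 to 36.1 RPKM later. It was 10.3 and 9.55 RPKM in blastocysts and listed at 0 and 0.030 RPKM in fibroblasts. CXXC4, which in mouse was reported to bind TET2, was 5.55 and 6.72 RPKM at P10 and 2.12 to 6.72 RPKM later, and it was listed at 0 in both blastocyst pools and both fibroblast lines. DPPA3, which in mouse inhibits UHRF1, had the reverse pattern between P10 cells and blastocysts. It was 34.6 and 32.3 RPKM in blastocysts and listed at 0 in P10 cells and fibroblasts, and it was not analysed here in later passages.

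Of 6 measured methyl-CpG readers and relatives of readers, none was higher and 2 were lower at P10 than in fibroblasts (median 0.01, against 0.23 for all genes). Of these 2, MBD2 stayed lower under all 4 scalings. All 6 were higher than in blastocysts (median 2.49, against 1.43 for all genes, of which 73.0% were higher), 4 of them under all 4 scalings. MBD2, which links methylated DNA to a deacetylase complex, was 11.7 and 13.4 RPKM at P10, 4.15 and 4.47 RPKM in blastocysts and 115 and 113 RPKM in fibroblasts (-3.09 ± 0.16 against fibroblasts; limma adjusted p = 3.69e-05). MBD3, included as a relative of MBD2 and not as a reader, was 31.5 and 25.9 RPKM at P10. It was 0.511 and 0.664 RPKM in blastocysts and 25.7 and 30.4 RPKM in fibroblasts. The change against blastocysts was 4.22 ± 0.20 (limma adjusted p = 1.21e-05).

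Of 8 measured genes for the methyl donor and for 2-oxoglutarate, the co-substrate of TET enzymes, 5 were higher and 2 lower than in fibroblasts (median 0.55, against 0.23 for all genes). Against blastocysts 6 were higher, where 73.0% of all genes were, and the median of 1.33 was below the 1.43 of all genes. Under all 4 scalings 2 stayed higher than in fibroblasts and 3 than in blastocysts. IDH2, the mitochondrial enzyme that makes 2-oxoglutarate, was 97.7 and 88.9 RPKM at P10, 1.53 and 1.17 RPKM in blastocysts and 22.6 and 28.0 RPKM in fibroblasts. Its change against blastocysts was 5.33 ± 0.19 (limma adjusted p = 8.32e-06), beside 4.85 ± 0.40 for UHRF1, the largest of the 7 genes. IDH1, of the same list, did not share this pattern. It was 97.0 and 89.0 RPKM at P10, 105 and 144 RPKM in blastocysts and 64.7 and 55.3 RPKM in fibroblasts. The change of IDH1 against blastocysts was -0.40 ± 0.21 (-1.83 relative; limma adjusted p = 0.115). AHCY, which clears the product that inhibits methyltransferases, was 253 and 260 RPKM at P10, 46.1 and 32.8 RPKM in blastocysts and 68.4 and 74.7 RPKM in fibroblasts.

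Of the 18 measured genes of DNA replication, 17 rose at P10 relative to fibroblasts and none fell (median 1.71), 16 of them under all 4 scalings. Against blastocysts 15 were higher (median 1.98, against 1.43 for all genes), 3 of them under all 4 scalings, beside 30.2% of all genes. CDC6, CCNE2 and GINS1 were not called against blastocysts, at 0.21 ± 0.28, 0.42 ± 0.52 and -0.41 ± 0.23. MCM2, a subunit of the replicative helicase, was 107 and 72.7 RPKM at P10, 4.28 and 2.86 RPKM in blastocysts and 11.5 and 12.4 RPKM in fibroblasts. DNMT1 and UHRF1 were called higher in both comparisons under all 4 scalings, and the part of the replication genes in their values was not tested.

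**Figure D5:**
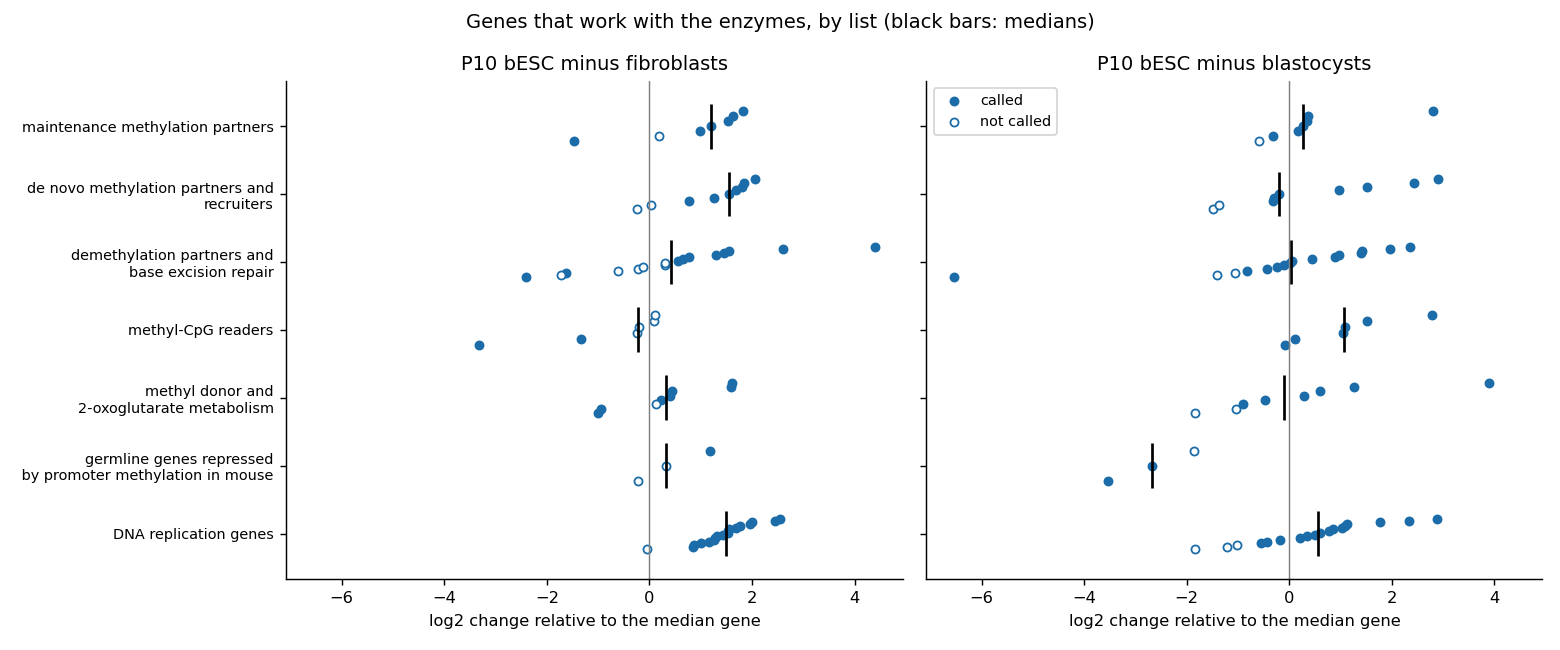
Log2 change relative to the median gene of each measured gene of 7 lists, at P10 against fibroblasts and against blastocysts, with black bars at list medians. Filled points were called by limma on the fitted change, so a point called higher can lie left of 0, and the median of the 18 replication genes lies at 1.48 against fibroblasts and 0.55 against blastocysts.

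Of 12 germline genes known in mouse to be kept silent by promoter methylation, 11 were in the files of controls and P10 and 3 passed the filter on low values. The 3 that passed were TDRD1, MAEL and SYCP3. TDRD1, of the piRNA pathway, was listed at 0 in both P10 libraries and was 2.60 and 4.17 RPKM in blastocysts. MAEL, of the same pathway, was 0.252 and 0.793 RPKM at P10 and 2.65 and 2.44 RPKM in blastocysts, and both genes were called lower at P10. TDRD1 and MAEL reached the 1 RPKM of the filter only in the 2 blastocyst pools. The filter itself thus favoured a call of lower at P10, and these calls say nothing of germline genes as a set. ASZ1, also of that pathway, was listed at 0 in all 10 stem cell libraries, at 0.976 and 1.55 RPKM in blastocysts and at 0 in fibroblasts. DAZL, HORMAD1, TEX101 and SYCE1 were listed at 0 in both P10 libraries and at most 0.096 RPKM in blastocysts, and STK31 and MOV10L1 were listed at 0 in fibroblasts.

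SYCP3, a component of the meiotic chromosome axis, had the highest level of the germline genes in stem cells. It was 2.99 and 4.88 RPKM at P10, 6.83 and 4.35 RPKM in blastocysts and 0.869 and 0.750 RPKM in fibroblasts. In later libraries it was 4.07, 5.48, 5.18 and 8.21 RPKM in line A and 11.4, 17.9, 15.6 and 26.1 RPKM in line B, with no overlap. The difference of line A from line B was -1.45 ± 0.14 (limma adjusted p = 0.0234), and SYCP3 was 1 of the 2 genes called in that comparison. The call was lost under 12 of 17 alternatives, at adjusted p from 0.058 to 0.334, while the sign was kept in each.

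Genes most like each enzyme were sought by the root mean square difference of centred log2(RPKM + 1) values over the 14 libraries, as a description that sets P10 and later files side by side. DNMT1 was nearest to CABIN1, TCF3 and PELP1, at 0.11, 0.14 and 0.14. UHRF1 was nearest to TENM3, ZNF462 and FBRSL1, at 0.33 to 0.39, and DNMT3A to FAM169A, ORC1 and PRKCZ, at 0.25 to 0.29. The nearest genes of DNMT3B were IGF2BP1, OTX2 and JARID2, at 0.33, 0.43 and 0.44. TET1 had the least close neighbours, among them KIT and NAALAD2, at 0.49 and 0.57. TET2 was nearest to SETDB2, NUFIP2 and SUZ12 and TET3 to TNPO1, AMER1 and SKA1, at 0.12 to 0.13. Among the 7 genes themselves, TET2 and TET3 lay closest, at 0.48, followed by DNMT1 and UHRF1, at 0.58, and UHRF1 and TET1 lay farthest apart, at 2.44. TET2 and TET3 had the lowest levels of the 7 genes in stem cells, and near the pseudocount this scale understates differences. Mean TET2 was 4.55 RPKM at P10 and 4.15 RPKM in blastocysts, while mean TET3 was 3.46 and 0.375 RPKM.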

How the data were processed

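Total RNA of 14 cattle samples was sequenced from TruSeq RNA libraries, per the labels' protocols. The authors deposited RPKM per feature, 1 file per library. Genome build UMD3.1 and edgeR appear in the submitters' processing notes. The aligner, the counter, the annotation and the library total are not stated there or in the labels. Read depth is unknown, and intervals that need it were not computed. Of the first file set, 26 unreadable names, 25 dates in place of names and 21 blank values were left out. In the second, 26 names turned into dates were restored from other files of that set. Names with a copy suffix (2568) were left out of the shared names.

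A fit kept each gene that reached 1 RPKM in 2 or more of its libraries, and all 7 members passed. log2(RPKM + 1) was fitted per gene with limma 3.58.1 in R 4.3.3 (empirical Bayes, mean-variance trend, two-sided). The first fit held 2 P10, 2 blastocyst and 2 fibroblast libraries with 1 spread. The second held the 8 later libraries, with terms for line and passage number and, for the difference of slopes, their product. The comparisons of the first fit share samples and are not independent. Python 3.11.15, pandas 2.3.3, numpy 2.4.6 and scipy 1.17.1 were used, and the fits were tested on simulated data. A table of reference symbols matched 13608 names of the first file set and 14547 of the second; its assembly differs from UMD3.1, so no positions are printed. The letters A and B recur across groups, but the deviations of same-lettered libraries correlated at 0.187, -0.079 and -0.099, so they were not treated as pairs.

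Members and lists were chosen with earlier results of these data known. Named genes were the 7 members, up to 3 called genes per list and comparison with the smallest adjusted p, list genes listed at 0 throughout a group, and the 3 nearest genes of each member. Some genes the rule names are given only within the counts of their list or are not reported here. Alternatives were 2 other pseudocounts (0.1 and 5), no filter, 3 other scalings, no trend, leaving out each library, the replicate block, the 10 stem cell libraries in 1 fit, and the later fit without the line A libraries of P13 and P35.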

Additional observations from a re-analysis of the deposited data

Results flagged for a closer look

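In 38 groups of 4 later libraries, 1 group per quantity and line, the gap between the outermost library and its nearest neighbour was set against the range of the group, and 2 libraries stood apart. Chance alone gives about 1 in 20 groups. In line B at P35, DNMT1 made up 27.9% of the summed RPKM of the 3 methyltransferases, against 17.4% to 18.6% in the other 3 libraries of that line. DNMT1 was 43.1 RPKM there and DNMT3B 72.2 RPKM, the lowest of the later libraries. In line A at P23, the summed RPKM of TET1, TET2 and TET3 was 18.3, against 20.5 to 20.8 in the other 3 libraries of that line.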

How the results depend on the processing

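For P10 against fibroblasts, 6736 genes were called in all and 4345 without line A at P10 (4345 to 6314 over libraries left out), the 1 alternative beyond 1.5 times. For line A against line B, 2 genes were called, against 5 with a pseudocount of 0.1, 0 with 5, 0 without a filter, 1 after quantile normalization, 1 after median-of-ratios scaling, 4 without the 2 most abundant features, 0 without line A at P13 and P35, and 0 to 5 over libraries left out. For the slope, 0 genes were called, and 0 to 2 over libraries left out, the 2 without line A at P23. The cause was not tested. With the replicate block, 6570, 9420 and 8689 genes were called for P10 against fibroblasts, P10 against blastocysts and blastocysts against fibroblasts, against 6736, 9445 and 8746 without it, and no call of a member changed. In the later fit, the slope without the line term also gave 0 genes.

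Against blastocysts at P10, the sign turned for DNMT3A (-1.09, -1.63 and -1.14) and TET2 (-1.53, -1.43 and -1.04) under quantile, median-of-ratios and top-feature scaling, and for DNMT3B (-0.10) under median-of-ratios scaling. For blastocysts against fibroblasts, TET3 ran from -0.21 without fibroblast line 1 to 0.25 without line 2. Without line A at P13 and P35, the highest later libraries in both genes, the line difference turned to -0.06 for DNMT1 and -0.25 for UHRF1. The slope of UHRF1 ran from -0.14 without line A at P23 to 0.01 without line A at P13. Relative to the median gene, at P10 against blastocysts USP7 turned to -0.13, -0.17 and -0.06 with a pseudocount of 0.1, median-of-ratios and top-feature scaling, and LIG1 to -0.30, -0.33 and -0.23 under these and, over libraries left out, from -0.07 without blastocyst pool 2 to 0.49 without line B at P10. MCM4 turned to 0.08, 0.15 and 0.13 under the same 3 settings for blastocysts against fibroblasts. Of the small values of members, 20 of 126 slopes, 10 of 119 line differences and 25 of 119 differences of slopes changed sign. Read depth is unknown, and 2 libraries per group limit the first fit.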
